A study of Homo sapiens with 39 samples.

Results

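The 34 genes of mitosis and the G2/M transition described here were taken by symbol from a list built on function, with each gene represented by its brightest probe. All 34 passed the filter on dim probes, among 18555 genes tested. RNA had been measured with 39 Illumina arrays in cultures of H838, a human lung adenocarcinoma line, and H209, a line from a human small cell lung cancer. Cultures had received 100 nM DKFZ-608, which the labels call a non-covalent inhibitor of TRXR1 (a thioredoxin reductase), formulated in 6.9 µM cyclodextrin, or cyclodextrin alone, called vehicle below. H838 had 3, 3 and 2 DKFZ-608 arrays at 4, 8 and 24 h, and 3 vehicle arrays at each of 0, 4, 8 and 24 h. H209 had 3, 2 and 3 DKFZ-608 arrays at 4, 8 and 24 h, and 3, 3, 2 and 3 vehicle arrays at 0, 4, 8 and 24 h. The 0 h arrays carried cyclodextrin too. Cells had been seeded 24 h before drug or carrier was added, so hours after the addition and hours in culture cannot be told apart. Nothing in the labels says that replicates were separate cultures, and the p-values then measure the spread between arrays only.

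Cells enter mitosis when B-type cyclins activate the kinase CDK1. Polo and Aurora kinases then build the spindle, kinetochore proteins and motors attach and move the chromosomes, and a checkpoint holds the anaphase-promoting complex back until all are attached, after which CDC20 and UBE2C drive the destruction of securin and the cyclins. Messenger RNA of these genes is known to be low in resting and G1 cells and highest in G2 and mitosis, under MuvB, B-MYB and FOXM1 complexes that act through CHR and CCAAT boxes in the promoters.

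Promoters are shown because the genes moved together over time in one of the lines, and their known boxes can be read in the letters. RefSeq windows of build GRCh38.p14, 250 bases before to 50 bases after the gene start, were at hand for 28 of the 34 genes, and for the 5 genes with several windows the one listed first was used. The motifs searched on both strands were TTTGAA and TTTAAA (the 2 common cores of the CHR box) and CCAAT (the NF-Y box), and matches of different motifs that share end letters were counted for each motif. A TTTGAA or TTTAAA match stood in 21 of the 28 windows (75%), against 18.9% of 14077 windows of genes tested and 24.3% of all 27305 windows. CCAAT stood in 23 of 28 (82.1%), against 36.6% and 35.7%, and both kinds of match stood in 18 of 28 (64.3%), against 7.7% and 9.49%. A match is a run of letters and not a measured site. The 250 bases before the start are printed 5′ to 3′ on the strand of the gene, with matches in capitals (ATTGG and TTCAAA are CCAAT and TTTGAA on the other strand). Their positions are CCNB1 chr5:69166900-69167149 (plus strand), CDK1 chr10:60778081-60778330 (plus strand), CDC20 chr1:43358731-43358980 (plus strand), PLK1 chr16:23678639-23678888 (plus strand), TOP2A chr17:40417897-40418146 (minus strand) and PSRC1 chr1:109283146-109283395 (minus strand).
CCNB1: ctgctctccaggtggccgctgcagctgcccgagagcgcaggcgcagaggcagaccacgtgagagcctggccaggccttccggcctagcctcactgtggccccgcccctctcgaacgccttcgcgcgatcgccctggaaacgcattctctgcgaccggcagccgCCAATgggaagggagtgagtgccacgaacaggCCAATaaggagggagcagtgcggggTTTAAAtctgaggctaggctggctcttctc
CDK1: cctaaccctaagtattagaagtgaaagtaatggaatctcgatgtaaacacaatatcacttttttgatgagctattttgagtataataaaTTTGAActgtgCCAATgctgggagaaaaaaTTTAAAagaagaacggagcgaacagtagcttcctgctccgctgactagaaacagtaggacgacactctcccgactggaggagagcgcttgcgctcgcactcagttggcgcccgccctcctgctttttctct
CDC20: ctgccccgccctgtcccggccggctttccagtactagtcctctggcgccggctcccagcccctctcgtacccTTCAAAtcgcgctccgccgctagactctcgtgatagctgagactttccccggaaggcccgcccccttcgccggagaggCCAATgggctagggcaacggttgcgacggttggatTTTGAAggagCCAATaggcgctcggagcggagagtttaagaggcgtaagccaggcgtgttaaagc
PLK1: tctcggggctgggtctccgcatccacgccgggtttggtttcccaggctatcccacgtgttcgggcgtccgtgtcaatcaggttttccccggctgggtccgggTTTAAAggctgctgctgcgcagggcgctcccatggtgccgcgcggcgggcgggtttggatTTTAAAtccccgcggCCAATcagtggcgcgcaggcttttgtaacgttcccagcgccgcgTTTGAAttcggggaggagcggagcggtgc
TOP2A: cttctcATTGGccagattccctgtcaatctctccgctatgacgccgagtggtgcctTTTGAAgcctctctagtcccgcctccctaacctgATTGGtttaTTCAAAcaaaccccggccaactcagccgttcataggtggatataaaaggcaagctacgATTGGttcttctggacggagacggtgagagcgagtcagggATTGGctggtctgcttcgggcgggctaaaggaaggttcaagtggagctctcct
PSRC1: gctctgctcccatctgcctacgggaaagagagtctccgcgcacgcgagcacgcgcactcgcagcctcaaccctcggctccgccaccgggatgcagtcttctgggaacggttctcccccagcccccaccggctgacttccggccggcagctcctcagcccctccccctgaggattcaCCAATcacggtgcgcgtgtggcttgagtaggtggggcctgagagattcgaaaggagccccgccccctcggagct
CCNB1 and PLK1 carry a CHR-type match close to the start, 30 and 29 bases before it, counted from the first base of the match. In CDC20 one lies 65 bases before the start, with CCAAT at 100 and 55. TOP2A holds 4 CCAAT matches, all on the other strand, and 2 TTTGAA matches at 194 and 151 bases before the start. PSRC1 holds 1 CCAAT, 74 bases before the start, and neither TTTGAA nor TTTAAA in this window. Other variants of the CHR box were not searched in any promoter.

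The lines were first checked against lineage genes. All 9 measured neuroendocrine genes of the small cell list were higher in H209, with GRP (gastrin-releasing peptide) at a mean log2 intensity of 6.33 in H838 and 13.57 in H209, although STMN2 was near the floor in both lines (6.59 and 6.66). The 10 genes listed for H838 were split, with 5 higher in H838 and 5 higher in H209, so this list did not separate the lines. VIM, CAV1, ANXA2, S100A6 and LGALS1 were higher in H838, although ANXA2 was close (12.68 in H838 and 12.50 in H209). The epithelial KRT19 and EPCAM lay at 6.44 and 7.43 in H838 and at 11.02 and 12.59 in H209. KRT8 (9.36 in H838 and 10.63 in H209), KRT18 and, by little, KRT7 (7.77 and 7.78) were higher in H209 too. Genes of fibroblasts, blood and vessel cells lay at 6.97 or lower in H838 and at 6.87 or lower in H209 in 9 of 10 measured, the exception being CD68 (9.84 and 9.94). In 4 H209 arrays the response genes went against the labels. HMOX1, the haem oxygenase, was at 10.6 to 12.7 log2 intensity in the other DKFZ-608 arrays of H209 and at 7.76 to 8.55 in the other vehicle arrays. It was at 8.09 in DKFZ-608 8 h replicate 2 and at 7.47 in DKFZ-608 24 h replicate 3, against 12.47 in vehicle 8 h replicate 2 and 11.01 in vehicle 24 h replicate 3. Each H209 result is therefore given with all arrays and without these 4, which leaves 15 of 19 H209 arrays.

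In H838 vehicle cultures the mitotic genes rose together over 24 h, by a median of 0.83 on the log2 scale (1.77-fold). In bulk RNA a larger share of cells in G2 or mitosis and more RNA per cell cannot be told apart. At 24 h against 0 h, 27 of the 34 were higher past the test (limma, Benjamini-Hochberg adjusted p under 0.05 over all genes) and none was lower. Of all 18555 genes, 1.06% rose and 0.83% fell, and the median over all was 0.00. In 29 of the 34 every 24 h array lay above every 0 h array, as in 8.16% of all genes. The 27 made up 13.7% of the 197 genes that rose.

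**Figure D1:**
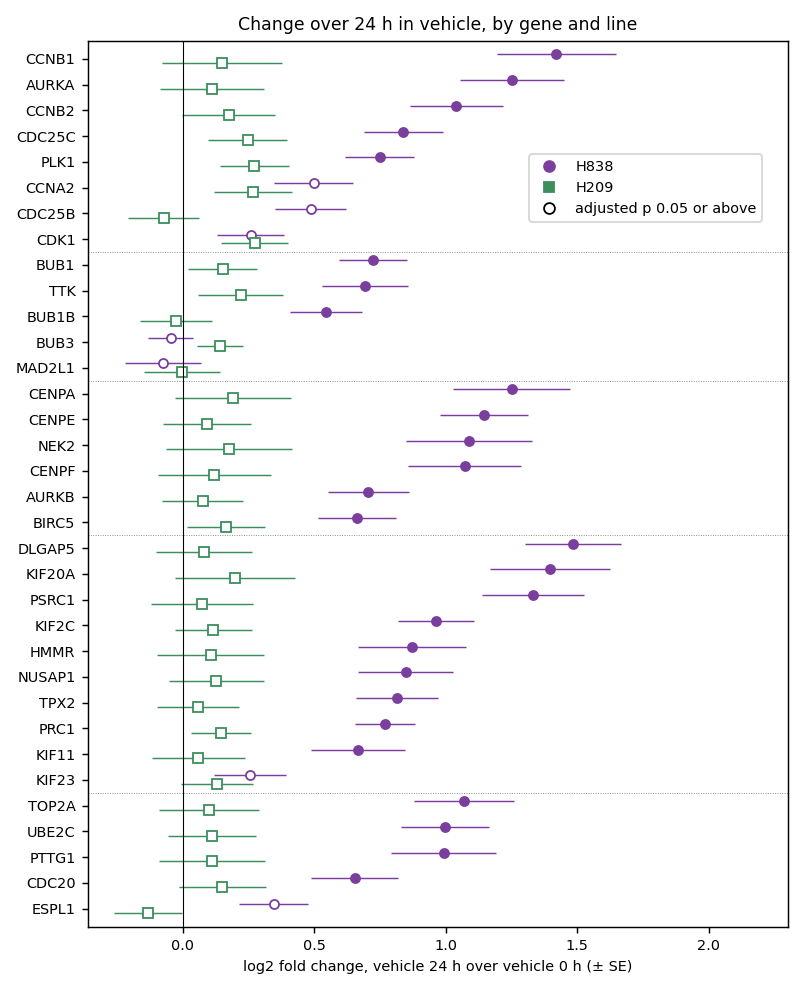
Change over 24 h in vehicle for each of the 34 genes, as log2 fold change of 24 h over 0 h with its standard error, H838 above H209 in each row. Genes are grouped by role, separated by dotted lines, and open symbols have an adjusted p of 0.05 or above. The 27 filled symbols are all of H838, and in H209 no gene passed.

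Among the entry kinases and cyclins 5 of 8 rose, with a group median of 0.79. CCNB1, the cyclin B1 that activates CDK1, had 9.78, 10.001 and 9.83 log2 intensity in the 24 h arrays, against 7.99, 8.34 and 9.02 in the 0 h arrays. The groups did not overlap, and the rise was 1.42 ± 0.23 on the log2 scale (SE, n = 3 each, 2.68-fold, limma adjusted p = 0.000422). AURKA, the kinase of centrosome maturation, had 11.85, 11.80 and 11.55 at 24 h, against 10.27, 10.28 and 10.90 at 0 h, a rise of 1.25 ± 0.20. PLK1, the Polo kinase, was dim and had 7.59, 7.69 and 7.84 at 24 h, against 7.06, 6.76 and 7.06 at 0 h, a rise of 0.75 ± 0.13. Neither gene overlapped between the times. CCNB2 (1.04) and CDC25C (0.84), a phosphatase that activates CDK1, rose as well. CDK1 itself had 10.48, 10.48 and 10.19 at 24 h, against 9.90, 10.29 and 10.17 at 0 h. Its 24 h and 0 h arrays overlapped, and its difference of 0.26 ± 0.13 did not pass (limma adjusted p = 0.455). CCNA2, the cyclin of S phase and G2, and CDC25B had differences of 0.50 and 0.49 that missed the threshold (limma adjusted p = 0.0888 and 0.0538), although neither overlapped between the times.

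All 6 genes of the kinetochore and the chromosomal passenger complex rose, with a median of 1.08. CENPA, the histone H3 variant of centromeres, had 9.36, 9.45 and 9.27 log2 intensity at 24 h, against 7.68, 8.00 and 8.65 at 0 h, a rise of 1.25 ± 0.22. CENPE, a kinetochore motor, rose by 1.15 ± 0.17, the kinase NEK2 by 1.09 ± 0.24 and CENPF by 1.07 ± 0.22. AURKB and BIRC5 (survivin), which work together in the passenger complex, rose by 0.71 and 0.66.

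Of the 10 spindle motors and spindle proteins 9 rose, with a median of 0.86. DLGAP5, a stabiliser of kinetochore microtubules, had the largest change of the 34 genes. It had 9.78, 9.81 and 9.84 log2 intensity at 24 h, against 7.92, 8.24 and 8.82 at 0 h, a rise of 1.48 ± 0.18 (2.80-fold). PSRC1, a microtubule-binding protein, had 8.71, 8.85 and 8.66 at 24 h, against 7.12, 7.30 and 7.79 at 0 h, a rise of 1.33 ± 0.19. In both, each 24 h array was above each 0 h array. KIF20A, a kinesin of cytokinesis, rose by 1.40 ± 0.23. KIF2C, which depolymerises microtubules, rose by 0.96, HMMR by 0.87, NUSAP1 by 0.85, TPX2, an activator of AURKA, by 0.81, PRC1 by 0.77 and KIF11 by 0.67. KIF23, the central spindle kinesin, was the member of the group that did not pass at 24 h (0.25 ± 0.14).

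Of the 5 genes of anaphase and chromosome separation 4 rose, with a median of 0.99. TOP2A, the topoisomerase that untangles sister chromatids, had 11.16, 11.05 and 10.81 at 24 h, against 9.66, 9.92 and 10.23 at 0 h, a rise of 1.07 ± 0.19. CDC20, the activator of the anaphase-promoting complex, had 11.99, 12.22 and 12.14 at 24 h, against 11.29, 11.32 and 11.76 at 0 h, a rise of 0.65 ± 0.17 (limma adjusted p = 0.0314). Neither overlapped between the times. UBE2C, its ubiquitin-conjugating enzyme, rose by 1.00 and PTTG1 (securin) by 0.99, whereas ESPL1 (separase) had a difference of 0.35 ± 0.13 that did not pass (limma adjusted p = 0.238).

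The spindle checkpoint genes had the lowest median of the 5 roles, 0.54, and 3 of 5 rose. The kinases BUB1 and TTK rose by 0.72 and 0.69 and BUB1B by 0.54. MAD2L1 and BUB3, which bind CDC20 in the checkpoint complex, had differences of -0.08 ± 0.14 and -0.05 ± 0.09, and their 24 h and 0 h arrays overlapped. Over all roles, the limma count was 15 of 34 without the 0 h array of replicate 1 and 17 of 34 without the 24 h array of replicate 2. Calls over all genes, in either direction, were 103 and 167 in these runs, against 351 with all arrays.

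At 8 h 26 of the genes had already risen. At 4 h all 34 genes had a positive difference from 0 h, with a median of 0.41, yet none passed the limma test (smallest adjusted p = 0.473), beside 0.00539% of all genes, while 24 of 34 had an unadjusted p under 0.05. In 11 of the 34 the 4 h arrays lay above all 0 h arrays, against 5.31% of all genes. At 8 h the median was 0.79, and the 26 of 34 stood beside 0.485% of all genes that rose and made up 28.9% of the 90 genes that rose. All 34 genes had a higher mean at 8 h than at 4 h, while 16 of 34 had a higher mean at 24 h than at 8 h. The largest rises at 8 h were in CCNB1 (1.46), PSRC1 (1.40), CENPA (1.34), KIF20A (1.29), DLGAP5 (1.22), AURKA (1.18), CENPE (1.15), NEK2 (1.15), UBE2C (1.12) and TOP2A (1.05). CDK1 had a difference of 0.51 that missed the threshold (limma adjusted p = 0.0544). It passed with the replicate number as a block (limma adjusted p = 0.0232). That the numbers pair these arrays was inferred from correlations of 0.14 to 0.24 in the same data, so this is not independent evidence. CCNB1 averaged 8.45, 9.14, 9.91 and 9.87 log2 intensity at 0, 4, 8 and 24 h. KIF23 and CCNA2 passed at 8 h (0.59 and 0.62) but not at 24 h, and whether the times differ in this was not tested. The 8 h count was 11 without the 0 h array of replicate 1 and 15 without that of replicate 2. It was 14 without the 8 h array of replicate 2 and 17 without that of replicate 3. Calls over all genes, in either direction, were 36, 61, 45 and 70 in these runs, against 109 with all arrays.

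**Figure D2:**
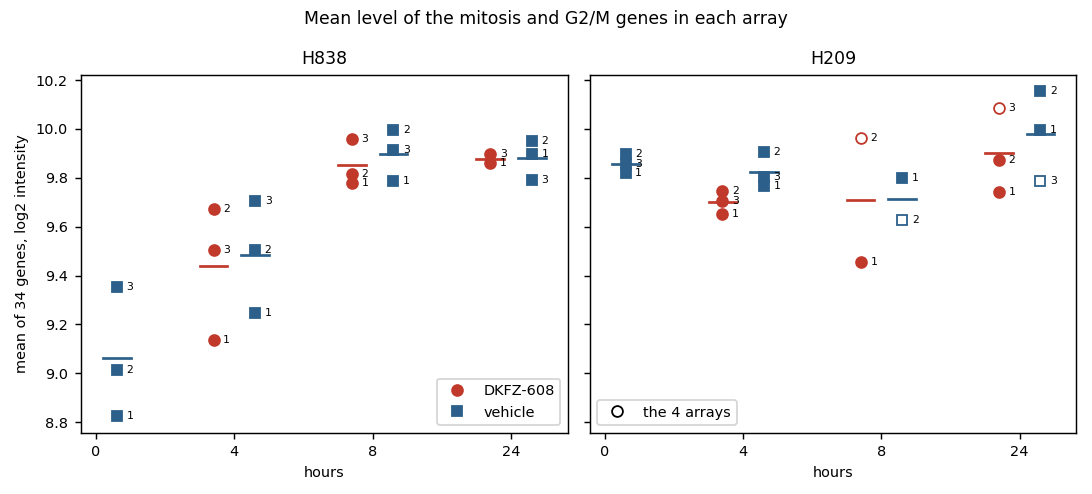
Mean log2 intensity of the 34 genes in each array, by line and hours (not to scale), with DKFZ-608 left of vehicle, replicate numbers beside the points and group means as bars. Open symbols are the 4 H209 arrays with response genes against their labels. The H838 0 h arrays lie at 8.82, 9.01 and 9.35, and every H838 array at 8 and 24 h lies above them.

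The H838 0 h arrays were themselves spread. Their mean over the 34 genes was 8.82, 9.01 and 9.35, whereas the 4 h arrays had 9.25, 9.50 and 9.71. The 8 h arrays had 9.79, 9.99 and 9.91, and the 24 h arrays had 9.90, 9.95 and 9.79. Replicate 1 was the lowest 0 h array in 26 of the 34 genes and replicate 3 the highest in 29. Over the genes the median SD was 0.28, 0.22, 0.15 and 0.14 at 0, 4, 8 and 24 h. The part of this spread in the changes above was not tested beyond leaving each array out.

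In H209 vehicle cultures no mitotic gene changed past the test. At 24 h against 0 h none of the 34 genes passed (limma; 2 of 34, CDK1 and PLK1, had an unadjusted p under 0.05), beside 0.0162% of all genes, and the median was 0.12. In 5 of 34 every 24 h array lay above every 0 h array, against 3.82% of all genes. Without the 4 arrays the median was 0.23, 33 of 34 were positive and none passed (limma; 6 with an unadjusted p under 0.05), beside 0.0593% of all genes. The 2 remaining 24 h arrays then lay above all 0 h arrays in 23 of 34, against 10.1% of all genes. CCNB1 had 9.03, 9.32 and 9.30 log2 intensity in H209 at 24 h, against 8.91, 9.24 and 9.04 at 0 h, and the times overlapped. DLGAP5 had 10.03, 10.16 and 9.73 at 24 h, the last from an array with the other profile, against 9.87, 9.86 and 9.95 at 0 h. The highest upper 95% limit of any of the 34 changes in H209 was 1.58-fold, or 1.85-fold without the 4 arrays. The medians at 4 and 8 h were -0.03 and -0.14 with all arrays, and -0.03 and -0.02 without the 4, with none of the 34 past the limma test and none with an unadjusted p under 0.05. Of all genes 0% passed at 4 h and 0.0108% at 8 h, or 0.00539% and 0.0162% without the 4.

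The difference between the lines in the 24 h change was tested directly. It was positive, so larger in H838, in 31 of 34 genes, with a median of 0.68, and passed in DLGAP5 (1.40 ± 0.26, limma adjusted p = 0.00964) and PSRC1 (1.26 ± 0.28, limma adjusted p = 0.0466), while 29 of 34 had an unadjusted p under 0.05. Of all genes 19 passed in this direction (0.102%). CENPE (1.05), AURKA (1.14) and CCNB1 (1.27) had limma adjusted p-values of 0.053, 0.0829 and 0.0956. Without the 4 arrays, when again 0.102% of all genes passed, DLGAP5 was the member that did, at 1.28. The count was 0 without the H838 0 h array of replicate 1 and 12 without that of replicate 3. Calls over all genes, in either direction, were 13 and 84 in these runs, against 30 with all arrays. The count was 1 without any of the other arrays at 0 or 24 h except H209 24 h replicate 2, where it was 2.

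**Figure D3:**
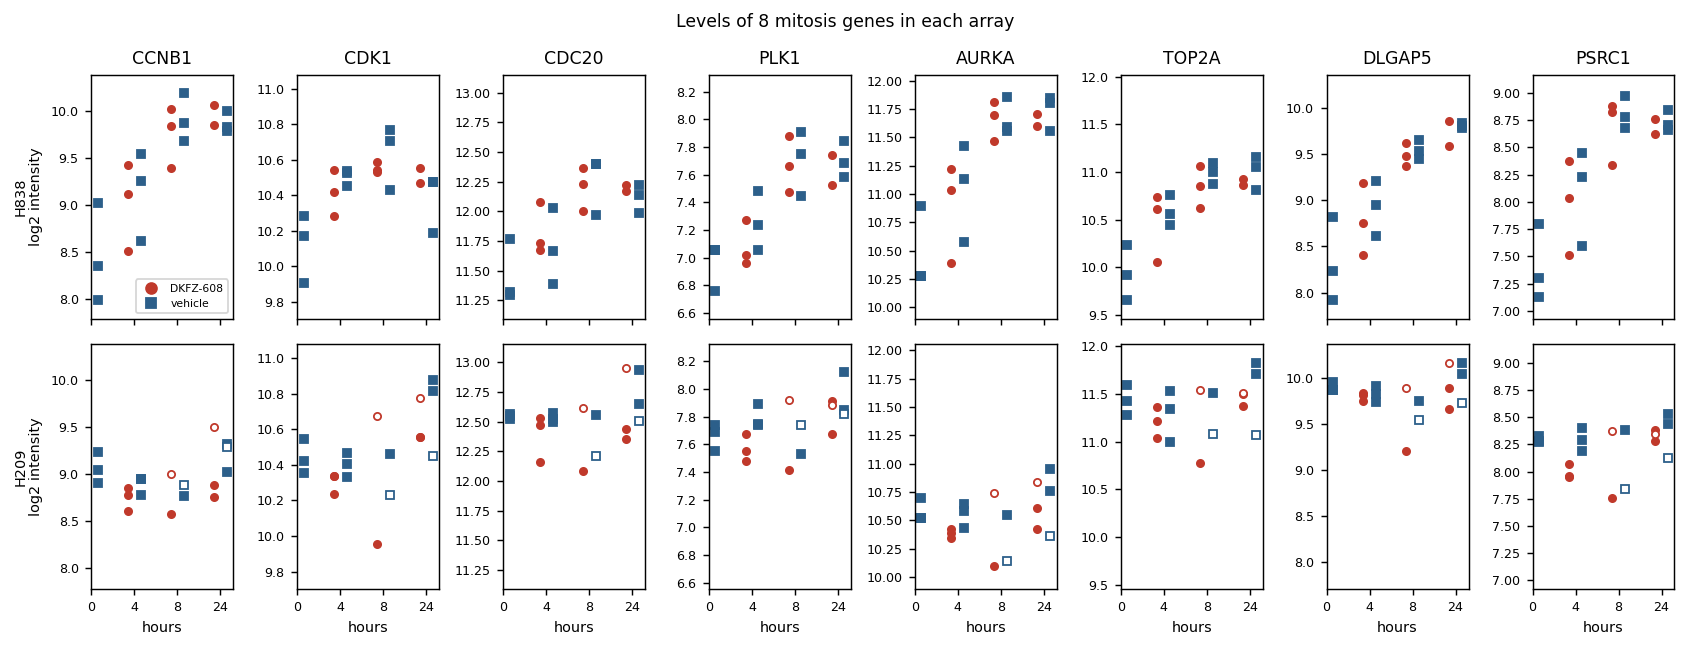
Log2 intensity of 8 of the genes in every array, with H838 in the upper row and H209 in the lower row, by hours (not to scale), and each gene on the same axis in both rows. Open symbols are the 4 H209 arrays with response genes against their labels. In H838 the 24 h vehicle values of 7 of the 8 genes lie above all 0 h values, CDK1 being the exception.

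The lines started from different levels. At 0 h in vehicle, 33 of the 34 genes were lower in H838 than in H209, by a median of -0.70 (0.62-fold), and 24 passed the limma test as lower and none as higher. This stands beside 24.5% of all genes that were lower in H838 and 21.3% that were higher. The largest differences were in PTTG1 (-2.06 ± 0.20), NUSAP1 (-1.74), DLGAP5 (-1.57), CCNB2 (-1.53), NEK2 (-1.50), TOP2A (-1.50), ESPL1 (-1.36), CENPF (-1.31), KIF11 (-1.26) and CDC25B (-1.25). PTTG1 had 10.27, 10.66 and 11.45 log2 intensity in H838 and 12.91, 12.91 and 12.75 in H209, with no overlap. CDC20 (-1.08), PSRC1 (-0.89), PLK1 (-0.70), CCNB1 (-0.61) and CDK1 (-0.32) were lower as well, while AURKA (-0.10) did not pass. CCNA2 was the gene with a positive difference, 0.05 ± 0.15. By 24 h in vehicle 20 of 34 were lower in H838 and the median difference was -0.18, or -0.28 without the 4 arrays, given with no test. DLGAP5 then averaged 9.81 in H838 and 9.97 in H209.

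In H838 no mitotic gene differed past the test between DKFZ-608 and vehicle cultures. Of the 34 genes none passed at 4, 8 or 24 h or for the mean of the 3 times (limma; 0 had an unadjusted p under 0.05 in each), beside 0% of all genes, with medians of -0.03, -0.06, -0.03 and -0.03. The 95% intervals of the mean effect over all 34 genes lay between 0.78-fold and 1.20-fold. CCNB1 had 8.51, 9.42 and 9.11 at 4 h in DKFZ-608 arrays, against 8.62, 9.26 and 9.54 in vehicle arrays. At 24 h it had 9.84 and 10.06 in DKFZ-608 arrays, against 9.78, 10.001 and 9.83 in vehicle arrays. Treated and vehicle values overlapped at both times.

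The change between 4 and 24 h can be compared between treated and vehicle cultures with no array in common. In H838 the median change was 0.45 in DKFZ-608 cultures and 0.43 in vehicle cultures, and 33 and 30 of the 34 genes were positive. Across the 34 genes, which share arrays and are not independent, the treated and vehicle changes had a Pearson r of 0.897 and a Spearman rho of 0.936. DLGAP5 passed in each, with 0.94 ± 0.20 in DKFZ-608 and 0.89 ± 0.18 in vehicle cultures (limma adjusted p = 0.03 and 0.00943), and it was the only member to do so, beside 14 genes of all (0.0755%) and 45 genes of all (0.243%) that rose. In vehicle cultures the replicate numbers were taken to pair the arrays, by correlations of 0.15 to 0.37 in the same data, which cannot establish pairing. With the number as a block 14 of 34 rose, beside 0.701% of all genes. MAD2L1 differed most between the courses, at 0.26 in DKFZ-608 and -0.26 in vehicle cultures, a difference that was not tested. In H209 the medians were 0.20 in DKFZ-608 and 0.15 in vehicle cultures with all arrays, and 0.06 and 0.25 without the 4, and none of the 34 passed in either (limma; 6 and 3 had an unadjusted p under 0.05, or 2 and 7 without the 4). Of all genes 0.34% and 0.0108% passed there, or 1.55% and 0.0539% without the 4. The vehicle count in H838 was 0 without the 4 h array of replicate 1 or 2 or the 24 h array of replicate 3. It was 8 without the 4 h array of replicate 3. Calls over all genes, in either direction, were 42, 46, 54 and 151 in these runs, against 122 with all arrays. The DKFZ-608 count was 3 without the 4 h array of replicate 2, and 0 without any of the other 4 arrays. Calls over all genes were 74 in the first run and 7 to 51 in the others, against 45 with all arrays.

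**Figure D4:**
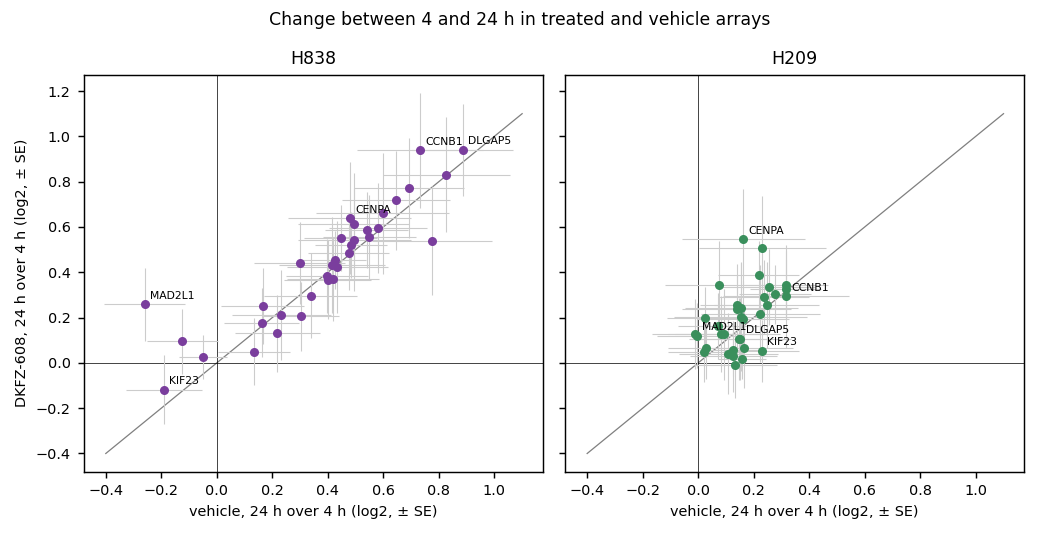
Change from 4 to 24 h of each of the 34 genes as log2 fold change with its standard error, DKFZ-608 on the vertical and vehicle on the horizontal axis, in H838 (left) and H209 (right, all arrays). The grey diagonal marks equal change. In H838 most genes lie near the diagonal, up to 0.94 in DKFZ-608 for DLGAP5, with MAD2L1 off it.

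In H209, most mitotic genes had lower mean levels in DKFZ-608 than in vehicle cultures, though none passed the test with all arrays. At 4 h, where no array was in doubt, 29 of 34 were lower, by a median of -0.11, and none passed the limma test (1 of 34, BIRC5, had an unadjusted p under 0.05), beside 0.652% of all genes. The treated arrays lay below all vehicle arrays in 8 of the 34, against 7.65% of all genes. CENPA was among them, with 8.86, 8.87 and 8.89 log2 intensity in DKFZ-608 arrays and 9.33, 9.35 and 9.20 in vehicle arrays, a difference of -0.42 ± 0.22. With all arrays, each 8 h group held 1 array of each response profile. The 8 h difference therefore says little about the drug, and the mean of times includes it. At 8 and 24 h with all arrays the medians were 0.00 and -0.07, and for the mean of the 3 times -0.07, with 30 of 34 lower. None of the 34 passed at any of these (limma; 0 of 34 had an unadjusted p under 0.05), beside 0% of all genes.

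Without the 4 arrays the differences were larger. The median was -0.32 at 8 h, with 1 array a group, and -0.28 at 24 h, with 2 a group, where DKFZ-608 arrays lay below vehicle arrays in 30 of 34 genes, against 23.7% of all genes. None of the 34 passed at either time (limma; 7 had an unadjusted p under 0.05 at each), beside 1.42% of all genes at 8 h and 1.66% at 24 h. At 8 h the spread comes from the other groups alone, and the single arrays are assumed to vary like them. For the mean of times all 34 were lower, by a median of -0.23 (0.85-fold), and 4 passed, beside 2.13% of all genes that fell. They were BIRC5 (-0.39 ± 0.10, limma adjusted p = 0.0131), AURKB (-0.35 ± 0.10, limma adjusted p = 0.0337), CCNA2 (-0.35 ± 0.09, limma adjusted p = 0.0266) and CDK1 (-0.30 ± 0.07, limma adjusted p = 0.00779). The arrays left out were recognised by their expression, so these p-values are not independent evidence. CENPA (-0.46) and KIF20A (-0.43) had larger differences that did not pass. TOP2A (-0.38), PSRC1 (-0.36), CDC20 (-0.34), AURKA (-0.32), CCNB1 (-0.23) and PLK1 (-0.18) did not pass either.

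The values of CDK1 show the 4 arrays beside the others. At 4 h it had 10.23, 10.34 and 10.34 log2 intensity in DKFZ-608 arrays, against 10.33, 10.47 and 10.40 in vehicle arrays. At 8 h it had 9.96 and 10.68 in DKFZ-608 arrays, against 10.46 and 10.23 in vehicle arrays, and at 24 h 10.55, 10.56 and 10.78 in DKFZ-608 arrays, against 10.82, 10.88 and 10.45 in vehicle arrays. The last value of each group at 8 and 24 h is from an array in doubt, and it is the highest of the DKFZ-608 values and the lowest of the vehicle values at both times. BIRC5 at 24 h had 8.81, 8.86 and 9.32 in DKFZ-608 arrays, against 9.17, 9.33 and 9.02 in vehicle arrays. Over the 34 genes, the arrays labelled DKFZ-608 8 h replicate 2 and 24 h replicate 3 were each above the mean of the other arrays of their label and time in 33. Those labelled vehicle 8 h replicate 2 and 24 h replicate 3 were below that mean in 25 and 32. At 8 h this mean is a single array. The 34 genes share arrays and are not independent, and the share over all genes was not counted.

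By role, the medians without the 4 arrays were -0.31 for kinetochore and passenger genes, -0.30 for anaphase and separation genes, -0.24 for entry kinases and cyclins, -0.20 for spindle motors and proteins and -0.17 for checkpoint genes. The difference between the lines in the mean DKFZ-608 effect passed in no gene, with all arrays (median 0.03, limma, 0 of 34 with an unadjusted p under 0.05) or without the 4 (median 0.21, smallest limma adjusted p = 0.0951, 7 of 34 with an unadjusted p under 0.05). Of all genes 0% and 2.51% passed.

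**Figure D5:**
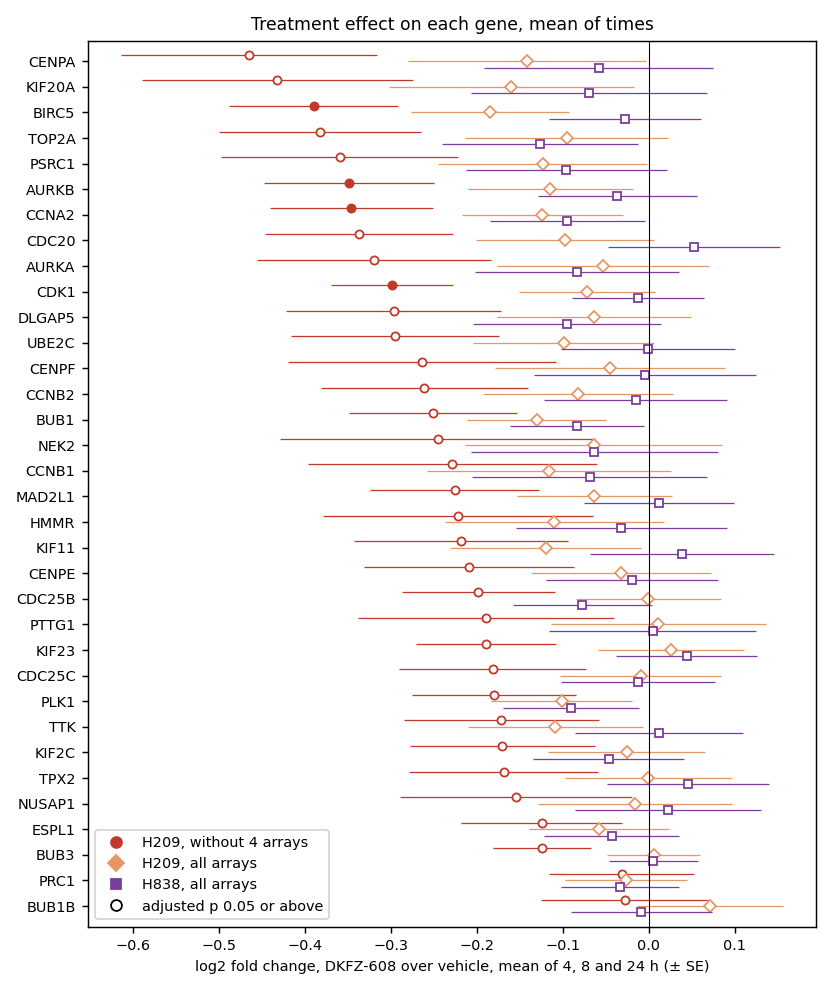
Mean effect of DKFZ-608 over 4, 8 and 24 h on each of the 34 genes, as log2 fold change over vehicle with its standard error, in H209 without the 4 arrays (red), in H209 with all arrays (orange) and in H838 (purple). Filled symbols passed the test. The red points run from -0.46 to -0.03, and the purple points from -0.13 to 0.05.

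Lists of related genes were described in the same way, beside the 1.06% of all genes that rose and the 0.83% that fell. In H838 vehicle at 24 h against 0 h, 25 of 67 other mitosis genes rose and none fell, with a median of 0.37, among them CDCA3 (1.08), the spindle proteins TROAP (1.00) and FAM83D (0.98), and ASPM (0.94), a protein of the spindle poles. Of 43 genes of DNA replication and S phase none rose and 8 fell, with a median of -0.20, among them CDT1 (-0.75), the licensing factor, CCNE1 (-0.66), the cyclin of S phase entry, UHRF1 (-0.65) and GINS3 (-0.48). Without the 4 H209 arrays, which enter the shared estimate of spread, 12 fell, beside 1.17% of all genes. Of 20 inhibitors and G1 cyclins, CDKN3 (1.23), a phosphatase that acts on CDK1 and CDK2, and CDKN1C (0.45) rose and CCND3 (-0.39) fell. None of 14 MuvB, FOXM1 and B-MYB regulators passed, with a median of -0.04. In H209 vehicle no gene of these 4 lists passed at 24 h, beside 0.0162% of all genes.

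In H209 under DKFZ-608, mean of times and without the 4 arrays, 2.74% of all genes rose and 2.13% fell, and the lists are to be read against these shares. There 4 of the 67 other mitosis genes fell, namely CDCA3 (-0.46), PBK (-0.39), INCENP (-0.36) and TRIP13 (-0.29). MCM5 (0.42) and CDT1 (0.36) rose and MCM7 (-0.30) fell among the 43 S phase genes. GADD45A (0.68), a stress gene that restrains CDK1, BTG1 (0.35) and CDK6 (0.31) rose and CDKN2D (-0.26) fell among the 20 inhibitors and G1 cyclins, and TFDP1 (-0.24), the partner of E2F factors, fell among the 14 regulators. With all arrays, none of these lists held a gene that passed.

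The changes can be set beside the promoter matches, with no test. In H838 vehicle at 24 h the 18 genes with both kinds of match had a median change of 0.86, and 14 of them rose, while the 10 with a window but without both had a median of 0.78, and 8 rose. PSRC1, with neither TTTGAA nor TTTAAA in its window, had one of the largest rises, though other CHR variants were not searched. CDK1, with matches of all 3 motifs, had a difference that did not pass.

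For 16 of the genes more than 1 probe was kept. In H838 at 24 h against 0 h, the other probes of AURKA, DLGAP5 and PTTG1 gave 1.28, 1.28 and 1.19, against 1.25, 1.48 and 0.99. The other DLGAP5 probe was nearly as bright as the one used (mean log2 intensity 9.19 against 9.50). It gave 1.08 against 1.40 for the line difference in the 24 h change. For H838 vehicle at 24 h against 4 h it gave 0.62 against 0.89, so the size of both is uncertain. Dimmer probes gave less for NEK2 (0.46 against 1.09), CENPA (0.74 against 1.25), UBE2C (0.22 against 1.00) and BIRC5 (0.41 against 0.66). For CDC25C the other probes gave 0.36 and 0.50 against 0.84. The first of these was nearly as bright as the one used (mean log2 intensity 7.56 against 7.68), so the size of its rise is uncertain. Other probes gave more for MAD2L1 (0.14 against -0.08) and BUB3 (0.19, 0.02 and 0.08 against -0.05). The 4 BUB3 probes disagreed on the lines at 0 h, at -1.61, -0.29 and 1.11 for the others and -0.03 for the one used, so the level of BUB3 between lines is uncertain.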

How the data were processed

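The authors deposited 1 table of linear intensity per probe for 39 bead arrays, and how they normalized it is not given in the sources used here. Array medians lay between 92.6 and 94.2, and precision is set by how many arrays a group has. Values were floored at the table's 1st percentile (75.8) and turned to log2. Of 48107 probes, 20 with empty cells were left out, as were probes not above the table's median in at least 2 arrays, which left 42925. Of these, 26943 carried 1 gene symbol in the platform annotation, and the brightest probe stood for each of 18555 genes. Group means over 14 groups were fitted with limma 3.58.1 in R 4.3.3, with p-values adjusted by Benjamini-Hochberg over all genes and a threshold of 0.05. Groups came from the titles, except the treatment of H838 DKFZ-608 replicate 1. Its titles name no drug, and the treatment field was used. H209 vehicle replicate 3, 1 of the 4 arrays in doubt, has 24 h in its title and 8 h in its time field, and the title was used. H209 vehicle 24 h replicate 2 has no time field.

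The members and lists were chosen with earlier results of these data known. All members are accounted for. CCNB1, CDK1, CDC20, PLK1, AURKA, TOP2A and PSRC1 were always to be named, with up to 10 members of the largest rise and of the largest fall past the test in each comparison, and up to 4 genes of each other list. Members named beside these, and the choice of those given by array, followed their values. Alternatives were the 4 H209 arrays left out, each array left out, the replicate number as a block, each line's own spread, the time field, other scalings, filters, floors and probe rules. The numbers were taken to pair the arrays of a comparison where correlations were over 0.1 in all pairs. That was so for H838 vehicle at 8 h against 0 h and 24 h against 4 h. In H209 it was so for vehicle at 4 h against 0 h and DKFZ-608 at 24 h against 4 h. It also held for H209 DKFZ-608 against vehicle at 4 h. With so few pairs this cut can neither establish nor exclude pairing. The limma fit was tested on simulated data. Figures were drawn with matplotlib 3.10.9.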

Additional observations from a re-analysis of the deposited data

Results flagged for a closer look

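The change over 24 h in vehicle differed between H838 and H209, by the interaction term in limma, in 2 of the 34 genes. Of all genes 0.102% passed in this direction. The count of 2 was 0 without the H838 0 h array of replicate 1 and 12 without that of replicate 3. Calls over all genes, in either direction, were 13 and 84 in these runs, against 30 with all arrays. The difference was 1.40 on the log2 scale for DLGAP5, which was higher at 24 h in all 3 H838 arrays than in any 0 h array. It was 1.26 for PSRC1, where the H838 arrays also did not overlap between the times. Without the 4 H209 arrays the difference was 1.28 for DLGAP5 and 1.14 for PSRC1, and PSRC1 no longer passed (limma adjusted p = 0.0629).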

How the results depend on the processing

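No called value of a named gene turned its sign under any alternative run. For the difference between the lines in the 24 h vehicle change, 2 genes passed as reported. The count was 1 without the 4 H209 arrays, with the time field in place of the title, with no filter or with the mean of probes. It was 0 to 12 with each array left out. It was 18 with the replicate number as a block, where calls over all genes went from 30 to 187. By the correlation cut the numbers were not taken to pair the arrays in either line for this change, though the cut cannot exclude pairing. For 24 h against 4 h in H838 vehicle the count of 1 became 4 without the 4 arrays and 0 to 8 with each array left out. It became 14 with the block, where calls over all genes went from 122 to 298. For the same change in H838 DKFZ-608 the count of 1 became 0 with H838 arrays alone and 0 to 3 with each array left out. It became 13 with the block, where calls over all genes went from 45 to 243. By the same cut the numbers were not taken to pair these arrays. For the mean DKFZ-608 effect in H209, the median of the 34 genes was -0.23 without the 4 arrays and -0.07 with all. With each array left out, 15 to 27 genes rose in H838 vehicle at 24 h against 0 h and 11 to 27 at 8 h. In the runs with 15 and 11, calls over all genes went from 351 to 103 and from 109 to 36. With the block the member counts were 29 and 30. By the correlation cut the numbers were taken to pair the arrays for 8 h against 0 h but not for 24 h against 0 h. Whether they are paired by design is not settled by it. A crossed pairing of the H209 8 h arrays, chosen after seeing the data, gave 0 calls. Where a count moved, the cause was not tested. Groups of 1 to 3 arrays limit every interval.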
